A study of Mus musculus with 36 samples.

Results

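The cell-cycle machinery that takes a cell out of G1 was followed here through 9 genes, the D-type cyclin genes Ccnd1, Ccnd2 and Ccnd3, the kinase genes Cdk4 and Cdk6, the E-type cyclin gene Ccne1, and the kinase inhibitor genes Cdkn1a, Cdkn1b and Cdkn2c. Members were the probe sets annotated to exactly 1 of these genes, 26 of the 34945 probe sets that name a single gene. Where a gene had several, the one whose mean across the arrays was highest stood for it, so that 9 of 18193 genes were members. All 9 were measured and none was removed for a low value.

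In G1, D-type cyclins pair with Cdk4 or Cdk6 and phosphorylate the retinoblastoma protein, which frees E2F transcription factors to switch on genes for DNA synthesis. Cyclin E then activates Cdk2 and completes the passage into S phase. Inhibitors of the INK4 family, such as the product of Cdkn2c, bind Cdk4 and Cdk6, whereas the CIP/KIP proteins encoded by Cdkn1a and Cdkn1b bind cyclin-kinase complexes more widely. Blood cells use the D-type cyclins in different mixtures, Ccnd3 and Cdk6 are known to be needed for the expansion of early thymocytes, and Cdkn1a is a classical target of p53.

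Gene expression was measured on 36 one-colour arrays of sorted progenitors from C57BL6 mice, in 8 populations. All labels give both sexes and an age of 1 week, also for the arrays titled adult. The series describes its arrays as biological replicates, and each of the 15 arrays of set 1 came from a pool of several mice. For the 21 arrays of set 2 no pool or tissue is given, so the p-values measure the spread between these samples only. The tissue of set 1 is thymus for the thymocyte and early thymic progenitor arrays and bone marrow for the others. Both sets hold 3 arrays each of HSC (LSKFlt3-CD48-CD150+, labelled haematopoietic stem cells), LSK (LSKFlt3hi IL7R+, labelled thymic seeding progenitors), ETP (ETPFlt3hi, early thymic progenitors) and DN3 thymocytes. DN2 (DN2Kit+) has 3 arrays, all in set 1. Set 2 alone holds 4 CLP arrays (a putative thymus seeding progenitor), 2 of adult ETP and 3 of pro-B cells (a B-cell progenitor), and 1 of the CLP arrays has no number in its title and is called CLP array 4 here. Levels are log2 values, and since the sets were normalized apart they are set side by side only within a set. A level of one probe set is not set against that of another.

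The labelled populations were checked against defining markers, taken as the mean log2 value of a list on each array. The 4 stem cell genes averaged 9.34 to 9.65 on HSC arrays and at most 6.21 on all others. The 6 T lineage genes averaged 10.85 to 12.30 on DN2 and DN3 arrays and at most 5.63 elsewhere. The 4 B lineage genes measured averaged 11.29 to 11.49 on pro-B arrays, and they reached 9.29 to 9.67 on LSK arrays of set 2 and 7.63 to 9.30 on CLP arrays, against 5.52 to 6.11 on ETP arrays of set 2. The 6 late granulocyte genes stood more than 1.5 above the median array of the set on LSK arrays 1 and 3, HSC arrays 1, 2 and 5, CLP arrays 1 and 2 and pro-B arrays 1 and 2. Called differences of members in comparisons that use these arrays, and counts over the gene lists, are given with and without them. Leaving them out keeps 1 of the 3 pro-B arrays, which is then assumed to vary like the other populations. That array, pro-B array 3, averaged 6.80 and fell only just short of the cut. DN3 arrays of set 2 averaged 4.98 to 5.26. Pro-B values without the granulocyte arrays are therefore not free of raised late granulocyte genes. In RNA from sorted bulk populations, fewer cells that express a gene and less RNA per cell cannot be told apart.

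A gene was called when its adjusted p in limma was under 0.05 over all 18193 genes and its fitted log2 difference was at least 1 in either direction. Over 10 comparisons this gave 22 calls among 90 pairs of a member and a comparison. The comparisons share populations, and those with a common population use the same arrays for it. In LSK against HSC, 1 member was called higher and 0 lower, where 3.90% of all genes were called higher and 4.51% lower. ETP against LSK had 0 members higher and 2 lower, beside 0.764% and 0.901% of all genes. DN2 against ETP had 2 higher and 1 lower, beside 1.44% and 1.65%, and DN3 against ETP likewise had 2 higher and 1 lower, beside 2.18% and 3.72%. The other calls were in comparisons with pro-B cells. Pro-B against LSK had 3 higher and 1 lower (1.75% and 2.55% of all genes), pro-B against CLP had 4 higher and 1 lower (3.33% and 2.52%), and DN3 against pro-B had 1 higher and 3 lower (3.23% and 5.05%). After quantile normalization within each set the split of all genes shifted in the last 2 of these, to 453 higher and 554 lower in pro-B against CLP, beside 605 and 459 as deposited, and to 703 higher and 709 lower in DN3 against pro-B, beside 587 and 918.

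No member was called by limma in the remaining comparisons. In CLP against LSK, where 0.00550% of all genes were called higher and 0.324% lower, 2 of the 9 members had an unadjusted p under 0.05. In DN3 against DN2 (0.770% higher, 1.57% lower) this held for 5 members, and in adult ETP against ETP (0.0605% higher, 0.148% lower) for 3. These percentages are at the call thresholds and cannot be set against the counts at an unadjusted p. The share of all genes with an unadjusted p under 0.05 was not counted, here or for the gene lists below. The member differences spanned -0.70 to 0.25 in CLP against LSK, -0.65 to 0.60 in DN3 against DN2 and -0.77 to 0.96 in adult ETP against ETP. The median over the 9 members in these comparisons was -0.07, 0.10 and 0.11, beside 0.03, 0.05 and 0.04 over all genes.

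**Figure D1:**
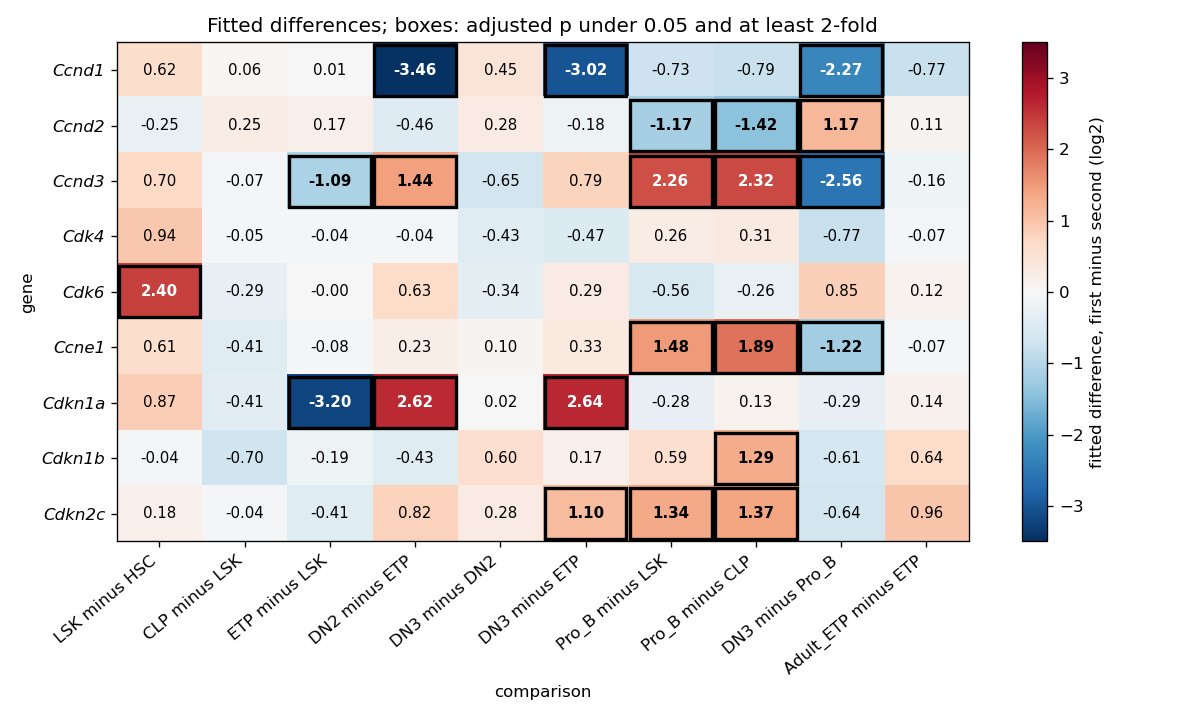
Fitted log2 difference of each of the 9 genes (rows) in each of the 10 comparisons (columns), first population minus second, with boxes around the 22 called differences. Ccnd1 and Cdkn1a have the darkest cells, at -3.46 in DN2 minus ETP and -3.20 in ETP minus LSK, and Cdk4 has no box.

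Ccnd1, the D-type cyclin that many growth factor signals induce, was lower on every DN2 and DN3 array than on any other array of the same set. Its level was 6.25, 6.24 and 6.10 on the DN2 arrays, against 9.46, 9.65 and 9.66 on the ETP arrays of set 1. On DN3 arrays it was 7.24, 6.31 and 6.54 in set 1 and 6.72, 5.54 and 6.51 in set 2, against 9.36, 9.25 and 9.58 on the ETP arrays of set 2. Every DN2 and DN3 array lay below every ETP array of its set by more than 2 log2 units. Ccnd1 was 11.0-fold lower in DN2 than in ETP (log2 difference -3.46 ± 0.20 SE, adjusted p = 1.8e-14) and 8.10-fold lower in DN3 than in ETP (-3.02 ± 0.16, adjusted p = 2.89e-16). The call held in each of the 21 alternatives for DN2 and the 25 for DN3. Of these, dropping the fold threshold cannot end a call, and another alternative refits the same probe set among all probe sets. The other 2 Ccnd1 probe sets were called in the same direction in both comparisons. They stood at -1.90 and -3.05 in DN2 against ETP and at -1.31 and -2.95 in DN3 against ETP. DN3 minus DN2 was 0.45 and did not pass (adjusted p = 0.20). The 4 macrophage genes moved with Ccnd1 here. Their list means in set 1 were 2.92 to 3.13 on DN2 and 3.03 to 3.08 on DN3 arrays, against 4.47 to 4.73 on ETP arrays. In set 2 they were 3.69 to 4.04 on DN3 arrays, against 5.02 to 5.11 on ETP arrays. HSC arrays had list means of 2.96 to 3.81 in set 1, with Ccnd1 at 8.75 to 8.99. In set 2 the HSC list means were 3.81 to 4.39, with Ccnd1 at 8.66 to 9.004. The part of the macrophage genes in the result was not tested.

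For the probe set that stands for Ccnd1, no difference was called in comparisons without DN2 or DN3. Probe set 1417420_at was called lower in pro-B cells than in LSK (-1.56) and CLP (-1.65), and the mean of the 3 probe sets was called at -1.003 against CLP. In set 2 the highest means were those of ETP (9.40 ± 0.17, SD, n = 3), CLP (9.37 ± 0.06, n = 4) and LSK (9.18 ± 0.12, n = 3), whose arrays overlap. HSC (8.82 ± 0.18, n = 3), pro-B (8.58 ± 0.39, n = 3) and adult ETP (8.56 ± 0.22, n = 2) followed, again with arrays that overlap. The adult ETP arrays, at 8.71 and 8.40, both lay below the ETP arrays of set 2, and the difference of -0.77 did not pass (adjusted p = 0.115). Pro-B arrays, at 9.004, 8.51 and 8.23, were all above the DN3 arrays. Ccnd1 was 4.83-fold lower in DN3 than in pro-B cells (-2.27 ± 0.20, adjusted p = 1.88e-10), or at -1.92 without the granulocyte arrays. The other probe sets gave smaller differences there. Probe set 1417420_at was called at -1.33, and 1417419_at stood at -0.85 and was not called. Against CLP, the probe set that stands for Ccnd1 had pro-B cells at -0.79, short of the 2-fold threshold. Without pro-B array 1 it was at -1.002, past that threshold. Over all 36 arrays, after the set term was taken off, the genes whose pattern was most like that of Ccnd1 were Hmga2 (Pearson r = 0.967), Mef2c (0.941) and Egfl7 (0.934), among 5157 genes whose population means span at least 1.

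**Figure D2:**
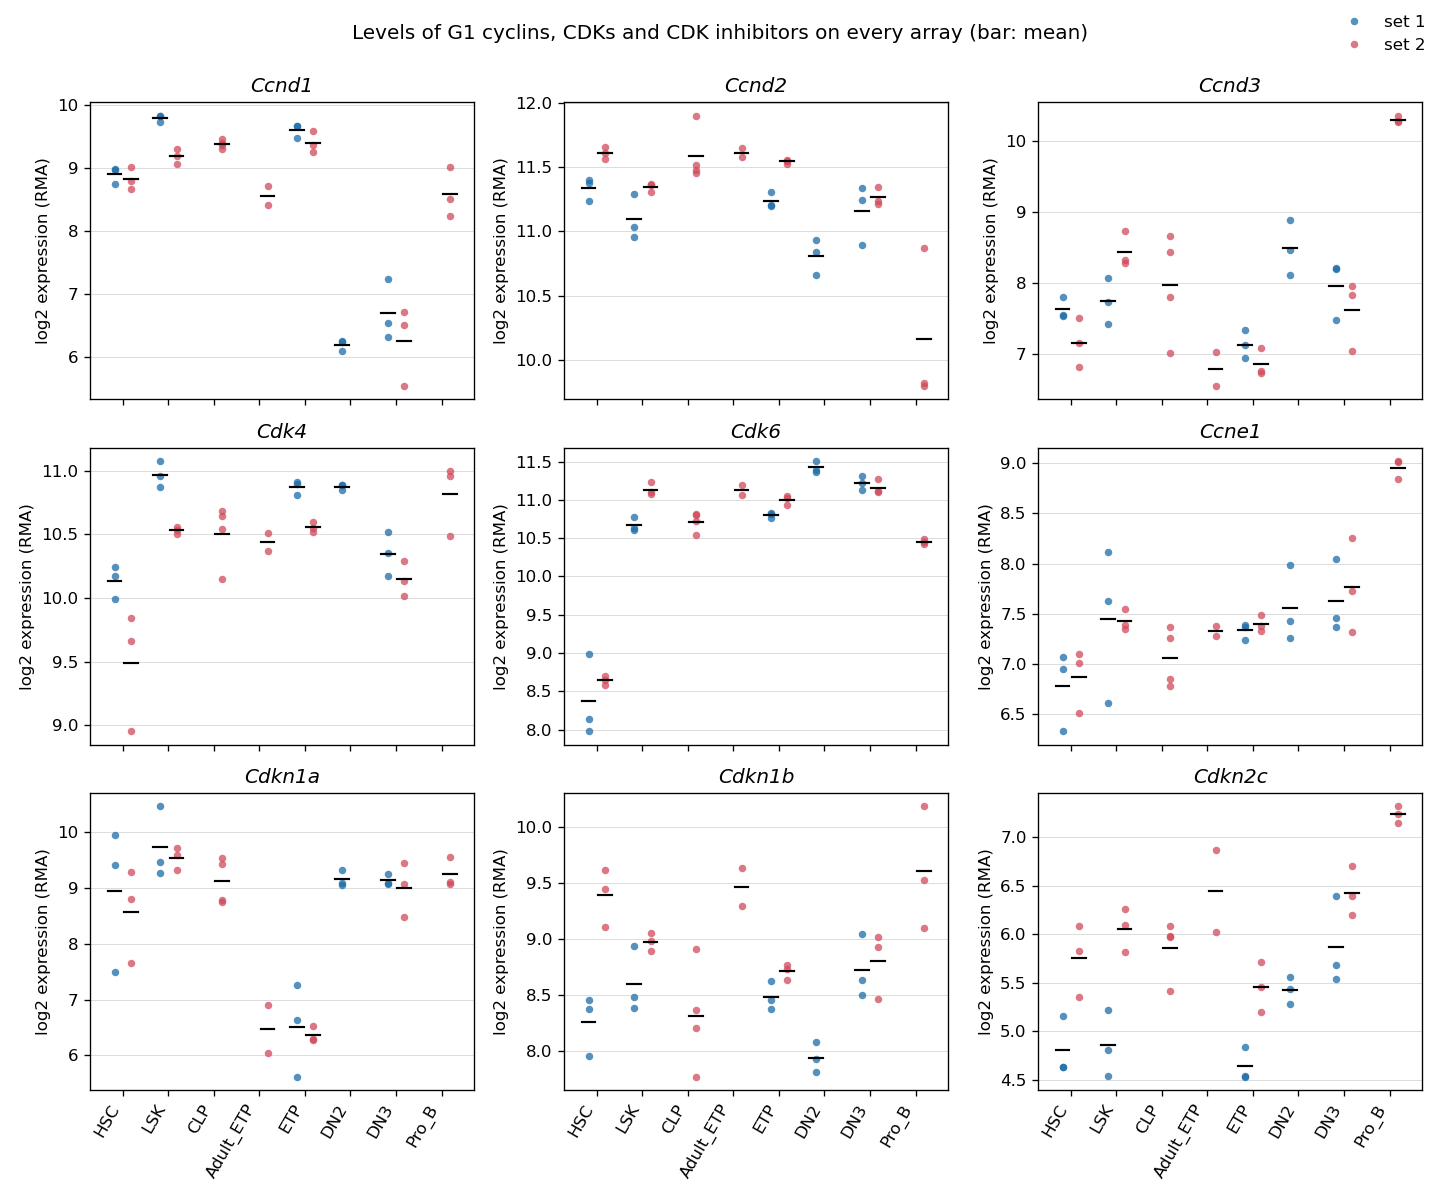
Log2 level of each gene on every array, by population, with set 1 in blue and set 2 in red and a bar at the mean of each population in a set. Ccnd1 is at most 7.24 on DN2 and DN3 arrays and at least 8.75 on the others of set 1, and at most 6.72 on DN3 arrays and at least 8.23 on the others of set 2. Cdkn1a is at most 7.27 on ETP arrays and at least 7.50 on the others of set 1.

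Ccnd2, a D-type cyclin known to respond to cytokine signals in lymphocytes, was called only in comparisons with pro-B cells, and only for 1 of its 7 probe sets, 1416124_at. Its level by that probe set was 9.80, 9.82 and 10.87 on the pro-B arrays, against 11.31, 11.37 and 11.36 on the LSK arrays of set 2 and 11.52, 11.45, 11.47 and 11.90 on the CLP arrays. All pro-B arrays lay below all others of set 2, and pro-B array 3 lay about 1 log2 unit above the other two. The fall was 2.68-fold against CLP (-1.42 ± 0.16, adjusted p = 9.24e-08) and 2.26-fold against LSK (-1.17 ± 0.16, adjusted p = 1.65e-06), and Ccnd2 was 2.25-fold higher in DN3 than in pro-B cells (1.17 ± 0.16, adjusted p = 7.62e-07). These calls depend on arrays and probe set. Late granulocyte genes averaged 8.06, 7.73 and 6.80 on pro-B arrays 1, 2 and 3, against 5.51 to 8.89 on CLP arrays, 4.79 to 6.07 on the LSK arrays and 4.98 to 5.26 on the DN3 arrays of set 2. Without the arrays named above for those genes, which leaves pro-B array 3 alone, the differences were -0.82 against CLP, -0.51 against LSK and 0.44 for DN3 against pro-B, and none was called. The LSK call also ended without pro-B array 1 (-0.99) and the DN3 call without pro-B array 1 (0.986) or 2 (0.997). All 3 calls ended with the mean of the probe sets, at -0.84 against CLP, -0.68 against LSK and 0.36 for DN3 against pro-B, and with the most variable probe set, at -0.75, -0.58 and 0.23. The other 6 Ccnd2 probe sets stood at -0.93 to -0.32 in pro-B cells against CLP and -0.15 to 0.49 in DN3 against pro-B, and none was called. In DN3 against ETP they stood at -0.90 to -0.50, each with an adjusted p under 0.05 but under 2-fold, where 1416124_at stood at -0.18.

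Outside pro-B cells, Ccnd2 means of 1416124_at in set 2 were 11.26 to 11.61 and neighbouring populations in their order mostly overlapped. In set 1, DN2 was lowest at 10.81 ± 0.14 (SD, n = 3), with arrays apart from those of LSK, the population next above it, at 11.09 ± 0.17 (n = 3). DN2 minus ETP was -0.46 and did not pass (adjusted p = 0.0889). Trp53bp1 (r = 0.934), Hnrnpk (0.908) and 2610005L07Rik (0.902) had the patterns most like that of Ccnd2.

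Ccnd3, the D-type cyclin best known for the expansion of pre-B cells and thymocytes, was highest in pro-B cells. Its level was 10.27, 10.36 and 10.29 on the pro-B arrays, against 8.73, 8.33 and 8.28 on the LSK arrays of set 2 and 8.66, 8.45, 7.81 and 7.01 on the CLP arrays. Every pro-B array was above every other array of set 2, and the CLP arrays spread most. Ccnd3 was 5.01-fold higher in pro-B cells than in CLP (2.32 ± 0.31, adjusted p = 1.79e-06) and 4.77-fold higher than in LSK (2.26 ± 0.30, adjusted p = 1.9e-06). These calls held in all 19 alternatives for CLP and all 20 for LSK, among them that without the granulocyte arrays, at 2.88 against CLP and 2.06 against LSK. Ccnd3 was 5.9-fold lower in DN3 than in pro-B cells (-2.56 ± 0.30, adjusted p = 7.27e-08), and only the mean over probe sets, at -0.92, missed the threshold. It was -2.58 without the granulocyte arrays (adjusted p = 0.000108).

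In the thymus, Ccnd3 was low in ETP and higher in DN2. It measured 8.48, 8.90 and 8.11 on the DN2 arrays, against 7.13, 7.35 and 6.94 on the ETP arrays of set 1, with no overlap. The rise was 2.72-fold (1.44 ± 0.30, adjusted p = 0.00163). ETP arrays were also below LSK arrays, at 6.75, 7.08 and 6.77 against 8.73, 8.33 and 8.28 in set 2, and at the values above against 8.07, 7.74 and 7.43 for LSK in set 1. The groups did not overlap in either set, and the fall was 2.14-fold (-1.09 ± 0.24, adjusted p = 0.00317). This call was not reached in set 1 alone (-0.61, adjusted p = 0.336) and ended without LSK array 4 (-0.95, adjusted p = 0.0159). It was -1.31 without the granulocyte arrays (adjusted p = 0.00118). The B lineage list moved with it, at 4.92 to 5.24 on ETP arrays against 7.14 to 7.69 on LSK arrays in set 1, and 5.52 to 6.11 on ETP arrays against 9.29 to 9.67 on LSK arrays in set 2. Its part in the result was not tested. DN3 minus ETP was 0.79 (adjusted p = 0.0177), under the 2-fold threshold.

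The Ccnd3 probe sets did not move together. The probe set used here is 1415907_at. Probe set 1444323_at was also called in pro-B against CLP (1.68), pro-B against LSK (1.81) and DN3 against pro-B (-1.42), but stood at -0.02 in ETP against LSK and 0.54 in DN2 against ETP, neither called. Probe set 1438805_at was called the other way in DN3 against pro-B (1.22) and stood at -1.01 in pro-B against CLP and -0.06 in ETP against LSK, neither called. Under the mean of the 3 probe sets the differences in ETP against LSK (-0.39) and DN2 against ETP (0.86) were not called. Among the 5157 genes ranked, Cd79b (r = 0.923), Lrmp (0.885) and Stambpl1 (0.875) had the patterns most like that of Ccnd3, as measured by 1415907_at.

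**Figure D3:**
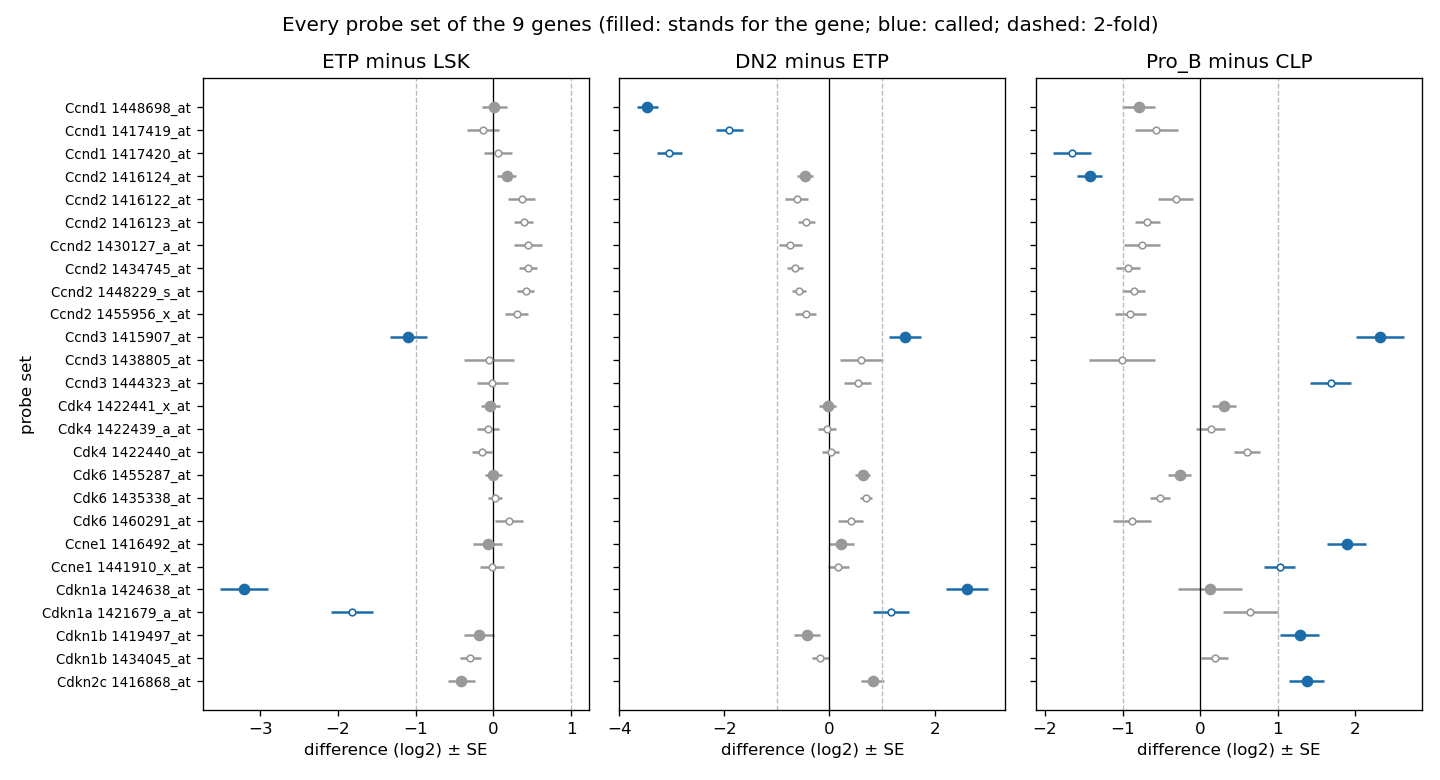
Fitted log2 difference ± SE of each of the 26 probe sets in 3 comparisons, with filled points for the probe set that stands for its gene, called differences in blue and dashed lines at 2-fold. The 3 Ccnd1 probe sets all lie below 0 in DN2 minus ETP, spread over -1.90 to -3.46. The Ccnd3 probe sets lie on both sides of 0 in Pro_B minus CLP, at 2.32, 1.68 and -1.01.

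Cdk4, a kinase partner of the D-type cyclins, had no called difference. Of the 7 members with a window in the RefSeq promoter table (250 bases before to 50 after the start site, GRCm38.p6; 10 windows in all), Cdk4 is shown because its window, chr10:127063285-127063584 on the + strand, held 4 copies of the E-box CACGTG, in capitals, a motif that Myc proteins can bind. They begin 172, 118, 98 and 11 bases upstream of the start site.

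Cdk4: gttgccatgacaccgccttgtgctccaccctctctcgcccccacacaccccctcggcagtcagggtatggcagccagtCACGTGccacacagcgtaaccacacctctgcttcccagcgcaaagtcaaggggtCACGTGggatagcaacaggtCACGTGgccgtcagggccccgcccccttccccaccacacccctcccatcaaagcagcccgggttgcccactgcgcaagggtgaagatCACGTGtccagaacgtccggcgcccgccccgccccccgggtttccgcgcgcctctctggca

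This palindrome reads the same on both strands. It occurred in 7.15% of all 32851 windows, and 8 windows (0.0244%) held 4 or more copies. The E2F motifs TTTCCCGC, TTTCGCGC, TTTGCCGC and TTTGGCGC were searched as well, on both strands. They occurred in 2.26% of all windows and in 0 of the 10 windows of members, so none overlapped an E-box there. This says only that these letters are not in these windows.

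Cdk4 measured 11.07, 10.87 and 10.96 on LSK arrays, against 10.17, 10.25 and 9.996 on HSC arrays in set 1. In set 2 it was 10.56, 10.54 and 10.51 on LSK arrays, against 9.84, 9.67 and 8.95 on HSC arrays. The groups did not overlap in either set. The difference of 0.94 ± 0.12 passed the p threshold (adjusted p = 2.04e-07) and missed 2-fold, and it reached 1.05 in set 2 alone, 1.05 without the granulocyte arrays and 1.09 for probe set 1422440_at, each of which was called. Pro-B cells had the highest set 2 mean (10.81 ± 0.28, SD, n = 3), with arrays that overlapped those of ETP. DN3 minus pro-B was -0.77 in limma (adjusted p = 0.000309), under 2-fold, and -0.40 without the granulocyte arrays. LSK, CLP, ETP and adult ETP had set 2 means of 10.44 to 10.56. DN3 arrays, at 10.29, 10.14 and 10.02, were below those of ETP, at 10.60, 10.55 and 10.52, with a fitted difference of -0.47 (adjusted p = 0.00522). Across the arrays, 3110082I17Rik (r = 0.915), Egln1 (0.895) and Mphosph10 (0.894) were most like Cdk4.

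Cdk6, the other D-cyclin kinase and the one best known in blood progenitors, set HSC apart from all other populations. It measured 10.64, 10.60 and 10.78 on the LSK arrays, against 8.99, 8.14 and 7.98 on the HSC arrays of set 1. In set 2 its level was 11.10, 11.23 and 11.07 on LSK arrays, against 8.70, 8.59 and 8.64 on HSC arrays. No array of another population in either set came within 1 log2 unit of an HSC array. Cdk6 was 5.27-fold higher in LSK than in HSC (2.40 ± 0.11, adjusted p = 2.39e-17), the call held in each of the 25 alternatives, among them that without the granulocyte arrays (2.54), and the other 2 probe sets were called at 2.45 and 2.16. All HSC arrays also stood apart in the stem cell genes. Of the S and M phase genes, 10 of 19 measured were called higher and 0 lower in LSK against HSC, beside 3.90% and 4.51% of all genes. The part of the S and M phase genes in the result was not tested.

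Beyond HSC, the order of Cdk6 in set 1 was DN2 (11.42 ± 0.07), DN3 (11.22 ± 0.09), ETP (10.80 ± 0.03) and LSK (10.67 ± 0.09; SD, n = 3 each), and the arrays of ETP and LSK overlapped. DN2 minus ETP was 0.63, past the p threshold (adjusted p = 0.004) but not 2-fold. In set 2 the arrays of DN3, LSK and adult ETP overlapped, at means of 11.13 to 11.16. ETP (11.00 ± 0.06, n = 3), CLP (10.72 ± 0.13, n = 4) and pro-B (10.45 ± 0.03, n = 3) followed, each apart from the next. Pro-B minus LSK was -0.56 (adjusted p = 0.00658) and DN3 minus pro-B 0.85 (adjusted p = 3.26e-05), both under 2-fold for the probe set used, 1455287_at. Probe set 1460291_at was called in both, at -1.13 and 1.41, and 1435338_at in DN3 against pro-B, at 1.07. Tedc1 (r = 0.959), Crip1 (0.942) and Notch1 (0.924) were most like Cdk6.

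Ccne1, the cyclin partner of Cdk2 at the entry into S phase, was highest in pro-B cells. Its level was 9.01, 9.02 and 8.84 on the pro-B arrays, against 7.37, 6.79, 7.26 and 6.85 on the CLP arrays and 7.35, 7.55 and 7.39 on the LSK arrays of set 2. DN3 arrays of set 2 measured 7.32, 7.73 and 8.26. All pro-B arrays were above all others of set 2. Ccne1 was 3.71-fold higher in pro-B cells than in CLP (1.89 ± 0.25, adjusted p = 1.23e-06) and 2.78-fold higher than in LSK (1.48 ± 0.24, adjusted p = 3.91e-05), and these calls held in the 19 alternatives for CLP and the 20 for LSK, at 1.78 and 1.54 without the granulocyte arrays. It was 2.34-fold lower in DN3 than in pro-B cells (-1.22 ± 0.24, adjusted p = 0.000235). That call ended without the granulocyte arrays (-1.003, adjusted p = 0.0594), after quantile normalization (-0.98) and with the mean of the probe sets (-0.94). The second Ccne1 probe set was called in pro-B against CLP (1.03). It was not called in pro-B against LSK (0.68) or DN3 against pro-B (-0.66), both under 2-fold.

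The other populations of set 2 had Ccne1 means of 6.88 to 7.77. Neighbours in that order overlapped, but the HSC arrays lay below all LSK, ETP, adult ETP and DN3 arrays. In set 1, LSK spread over 7.63, 6.61 and 8.12, while ETP arrays were at 7.24, 7.39 and 7.37. HSC was lowest in both sets, and LSK minus HSC was 0.61 (adjusted p = 0.0132), under 2-fold. The likest patterns were those of Elof1 (r = 0.831), Rbm28 (0.823) and Tcf19 (0.816). Among the members, the arrays gave Ccne1 a Pearson r of 0.65 with Ccnd3 and 0.63 with Cdkn2c, and -0.82 with Ccnd2, over 36 arrays that share their populations.

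Cdkn1a, the CIP/KIP inhibitor induced by p53, had the largest difference of the members in ETP against LSK. Its window at chr17:29090729-29091028 (+ strand, GRCm38.p6), that of the more upstream of its 2 start sites in the table, is shown with its p53 half-sites in capitals. These begin 73 and 51 bases upstream of that start.

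Cdkn1a: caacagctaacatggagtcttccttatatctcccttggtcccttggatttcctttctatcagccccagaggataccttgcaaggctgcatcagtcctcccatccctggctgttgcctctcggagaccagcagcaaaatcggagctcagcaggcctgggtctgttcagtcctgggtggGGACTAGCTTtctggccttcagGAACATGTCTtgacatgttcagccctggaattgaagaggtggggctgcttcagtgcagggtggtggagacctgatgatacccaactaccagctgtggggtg

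The p53 half-site, searched on both strands, occurred in 8.36% of the 32851 windows, whatever the number of copies. The share with at least as many copies as the window shown was not counted. The second Cdkn1a window held no half-site. A match is a description of the letters and not a measured site.

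Cdkn1a measured 5.62, 6.63 and 7.27 on the ETP arrays, against 9.47, 9.27 and 10.46 on the LSK arrays of set 1. In set 2 it measured 6.52, 6.28 and 6.30 on ETP arrays, against 9.32, 9.59 and 9.72 on LSK arrays. Each ETP array was at least 2 log2 units below each LSK array of its set. Cdkn1a was 9.21-fold lower in ETP than in LSK (-3.20 ± 0.31, adjusted p = 7.73e-09), with -3.23 in set 1 alone and -3.18 in set 2 alone. The B lineage list was lower on ETP arrays too, by the values given for Ccnd3, and so were the 4 early lymphoid genes, at 8.04 to 8.78 on ETP arrays against 10.47 to 10.64 on LSK arrays in set 1, and 9.08 to 9.47 on ETP arrays against 11.60 to 11.72 on LSK arrays in set 2. The part of these lists in the result was not tested. The adult ETP arrays, at 6.91 and 6.03, spanned the ETP arrays of set 2, and adult ETP minus ETP was 0.14 (adjusted p = 0.919).

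Past the ETP stage the level of Cdkn1a was high again. It was 9.06, 9.33 and 9.09 on DN2 arrays, 9.26, 9.08 and 9.10 on DN3 arrays of set 1, and 9.07, 9.45 and 8.48 on DN3 arrays of set 2. All of these lay above all ETP arrays. The rise was 6.13-fold in DN2 against ETP (2.62 ± 0.39, adjusted p = 1.67e-05) and 6.23-fold in DN3 against ETP (2.64 ± 0.31, adjusted p = 5.24e-08), and DN3 minus DN2 was 0.02 (adjusted p = 0.984). The calls in ETP against LSK, DN2 against ETP and DN3 against ETP share the ETP arrays and held in each of the 25, 21 and 25 alternatives tried. The second probe set, 1421679_a_at, was called in the same directions at -1.82, 1.17 and 1.11. The 3 thymic epithelium genes were higher as well, with list means of 5.04 to 5.14 on DN2 arrays and 5.57 to 5.68 on DN3 arrays, against 4.34 to 4.48 on ETP arrays in set 1, and 6.15 to 6.72 on DN3 arrays against 5.27 to 5.37 on ETP arrays in set 2. Their part in the result was not tested.

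Of the other populations, HSC arrays ranged most, at 7.50, 9.41 and 9.96 in set 1 and 9.28, 8.80 and 7.65 in set 2. CLP arrays measured 9.54, 8.78, 9.43 and 8.75, and pro-B arrays 9.08, 9.57 and 9.11. Probe set 1421679_a_at was called lower in DN3 than in pro-B cells (-1.205), where the probe set used stood at -0.29. LSK arrays overlapped HSC arrays in set 1 and lay above them in set 2. LSK minus HSC was 0.87 (adjusted p = 0.0344), under 2-fold, and passed at 1.10 without HSC array 3 and at 1.003 without HSC array 4. It was 0.54 without the granulocyte arrays (adjusted p = 0.394). The late granulocyte genes were above 1.5 over the set median on LSK arrays 1 and 3, and without all such arrays ETP minus LSK was -3.11 (adjusted p = 1.26e-06). Cd24a (r = 0.790), Dhrs3 (0.734) and Igf2r (0.725) were most like Cdkn1a.

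Cdkn1b, the CIP/KIP inhibitor tied to quiescence in many cells, was called once. It measured 9.53, 10.18 and 9.10 on pro-B arrays, against 8.92, 8.37, 8.21 and 7.77 on CLP arrays. The groups did not overlap, and each of them ranged over about 1 log2 unit. The rise was 2.44-fold (1.29 ± 0.25, adjusted p = 0.000409). It was no longer called without pro-B array 2 (0.998), without the granulocyte arrays (1.11, adjusted p = 0.0766) or with the mean of the probe sets (0.74), and the second probe set, 1434045_at, stood at 0.19. Both adult ETP arrays, at 9.64 and 9.30, were above the ETP arrays, at 8.73, 8.63 and 8.77, and the difference of 0.64 did not pass (adjusted p = 0.272). The place of HSC in the order differed between the sets, as the third highest of 7 in set 2 (9.39 ± 0.26, n = 3) and the second lowest of 5 in set 1 (8.26 ± 0.27, n = 3). Ttll1 (r = 0.612), Pisd (0.596) and Ciao2b (0.591) were most like it, all with weaker likeness than for the other members.

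Cdkn2c, the INK4 inhibitor of Cdk4 and Cdk6 known to act in lymphoid cells, has a single probe set with low values. It measured 7.14, 7.24 and 7.32 on pro-B arrays, against 5.98, 6.08, 5.42 and 5.97 on CLP arrays and 6.26, 5.82 and 6.10 on the LSK arrays of set 2. All pro-B arrays were above all others of set 2. Cdkn2c was 2.59-fold higher in pro-B cells than in CLP (1.37 ± 0.23, adjusted p = 4.93e-05) and 2.53-fold higher than in LSK (1.34 ± 0.22, adjusted p = 4.95e-05). These differences were 1.63 (adjusted p = 0.0196) against CLP and 1.41 (adjusted p = 0.0275) against LSK without the granulocyte arrays.

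In the thymus Cdkn2c measured 6.40, 5.54 and 5.68 on DN3 arrays, against 4.53, 4.84 and 4.53 on ETP arrays in set 1. In set 2 it was 6.39, 6.20 and 6.70 on DN3 arrays, against 5.19, 5.46 and 5.71 on ETP arrays. The groups did not overlap in either set, and the rise was 2.15-fold (1.10 ± 0.17, adjusted p = 9.38e-06). Without DN3 array 1 the difference was 0.96 and under 2-fold, as was that of set 2 alone (0.97). The thymic epithelium genes were higher on DN3 arrays too, by the values given for Cdkn1a, and their part in the result was not tested. DN2 minus ETP was 0.82 (adjusted p = 0.0194) and adult ETP minus ETP 0.96 (adjusted p = 0.0732), neither called. Spib (r = 0.802), Ablim1 (0.798) and A630023P12Rik (0.792) were most like Cdkn2c.

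The remaining G1/S network was read from a list of 37 further genes, of which 36 were measured (Trp53 was not). In LSK against HSC, 5 were called higher and 3 lower, beside 3.90% and 4.51% of all genes, led by Ccna2, an S and G2 cyclin (1.84 ± 0.14, adjusted p = 5.44e-12), and Cdkn1c, the third CIP/KIP inhibitor (-2.38 ± 0.14, adjusted p = 9.93e-15). Cdkn1c averaged 4.23 ± 0.11 on LSK arrays and 6.90 ± 0.19 on HSC arrays in set 1, and 4.83 ± 0.06 on LSK arrays and 6.92 ± 0.34 on HSC arrays in set 2 (SD, n = 3 each). The list had a median difference of 0.23 there, the 9 members 0.62 and all genes 0.01. CLP against LSK had 0 higher and 2 lower, beside 0.00550% and 0.324% of all genes. The lower genes were Ccna2 (-1.20 ± 0.17) and Cdk1, the mitotic kinase (-1.12 ± 0.20). Without the granulocyte arrays the counts were again 5 higher and 3 lower in LSK against HSC, and 0 higher and 1 lower in CLP against LSK.

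Comparisons with ETP had 0 to 3 calls in this list. In ETP against LSK, where 0.764% of all genes were higher and 0.901% lower, 1 was higher, Mycn, a Myc family factor (1.31 ± 0.19), and 1 lower, Foxo1, a forkhead factor of lymphoid development (-1.87 ± 0.23). In DN2 against ETP 1 was higher, E2f2 (1.41 ± 0.26), and 0 lower, beside 1.44% and 1.65% of all genes. DN3 against ETP had 1 higher, again E2f2 (1.60 ± 0.21), and 2 lower, beside 2.18% and 3.72% of all genes. Of the lower genes Mycn fell most (-1.82 ± 0.19). DN3 against DN2 and adult ETP against ETP had 0 called by limma, with an unadjusted p under 0.05 for 13 and 4 of the 36 genes. Without the granulocyte arrays DN3 against DN2 had 1 lower, and the comparisons with ETP had the same counts.

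Pro-B cells had 4 genes of this list higher and 1 lower against LSK, beside 1.75% and 2.55% of all genes. Against CLP 6 were higher and 1 lower, beside 3.33% and 2.52% of all genes. Without the granulocyte arrays 1 was higher and 0 lower against LSK, 4 were higher and 0 lower against CLP, and in DN3 against pro-B 0 were higher and 5 lower. With all arrays E2f2 stood at 2.41 ± 0.26 against LSK and 2.95 ± 0.27 against CLP. Foxo1 (1.38 ± 0.30) came next against LSK and the repressive E2F gene E2f7 (2.13 ± 0.46) against CLP. Cdkn2d, another INK4 inhibitor, was higher in pro-B cells than in LSK (1.05 ± 0.15, adjusted p = 9.06e-06) and CLP (1.12 ± 0.16, adjusted p = 4.48e-06). In DN3 against pro-B 0 were higher and 6 lower, beside 3.23% and 5.05% of all genes. The lower genes were led by E2f7 (-2.76 ± 0.44) and Foxo1 (-2.62 ± 0.30). Cdk2, Ccne2, Cdkn2a and Cdkn2b were called in none of the 10 comparisons, with differences of -0.60 to 0.65 over all 4 genes.

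The S and M phase genes give a second view of cell-cycle activity, with 19 of 20 measured (Ccnb1 was not). In LSK against HSC 10 were called higher and 0 lower, beside 3.90% and 4.51% of all genes. In CLP against LSK 0 were higher and 4 lower, beside 0.00550% and 0.324%. In pro-B against CLP 7 were higher and 2 lower, beside 3.33% and 2.52%. In DN3 against pro-B 2 were higher and 5 lower, beside 3.23% and 5.05%. Pro-B against LSK had 1 higher and 2 lower (1.75% and 2.55% of all genes). DN2 against ETP had 1 and 0 (1.44% and 1.65%), and DN3 against ETP 0 and 1 (2.18% and 3.72%). None was called by limma in ETP against LSK, DN3 against DN2 or adult ETP against ETP, where 2, 7 and 3 had an unadjusted p under 0.05. Without the granulocyte arrays 9 were higher in LSK against HSC, 1 was lower in CLP against LSK, 4 were higher and 0 lower in pro-B against CLP, and none was called in pro-B against LSK or DN3 against pro-B. Fewer of all genes were also called without these arrays in CLP against LSK and in the comparisons with pro-B cells. The lower list counts there cannot be read apart from that. In ETP against LSK the S and M phase genes had a median difference of -0.05 and all genes 0.01. Cdkn1a fell 9.21-fold in that comparison, and the part of cell-cycle activity in its fall was not tested. Mki67, the proliferation antigen, averaged 12.54 ± 0.07 in ETP and 12.58 ± 0.12 in LSK in set 1 (SD, n = 3 each), with a fitted difference of -0.13 (adjusted p = 0.596). In LSK against HSC its fitted difference was 0.73 (adjusted p = 2.56e-09), under 2-fold.

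In the populations held by both sets, no member passed the interaction test of population and set at an adjusted p under 0.05. With 3 arrays per population and set, this does not show that the differences are equal. Over 27 tests the smallest adjusted p was 0.258, for Ccnd3 in LSK against HSC, where the difference was 1.28 in set 2 and 0.12 in set 1. This test and 2 others of the 27 had an unadjusted p under 0.05. The others were Cdkn1b in LSK against HSC (0.34 in set 1, -0.42 in set 2) and Ccnd3 in ETP against LSK (-0.61 in set 1, -1.58 in set 2).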

How the data were processed

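Total RNA of sorted cells was amplified and labelled as cDNA for one-colour arrays, per the labels' protocols. Per the submitters' processing notes the authors deposited RMA values, a method that subtracts background, brings arrays to a common distribution and combines the probes of a probe set, and these were read here as log2 values because their base is given nowhere. RMA's between-array step assumes that most genes keep their level, so a shift of all genes in a population would not show. Array medians were 5.12 to 5.22 in set 1 (15 arrays, labels with the pooling remark) and 5.84 to 5.95 in set 2 (21 arrays), which shows that the sets were normalized apart. The table holds 45101 probe sets, 64 of them controls, and the platform annotation names 1 gene for 34945, several for 932 and none for 9160. No value was missing, no column was left out and no pair of arrays was identical. Arrays give no read depth, and their number limits the precision.

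All 18193 genes were fitted with limma 3.58.1 (lmFit and eBayes, R 4.3.3) on population and set over the 36 arrays, so the populations of a comparison share the spread of all 8. Within-set values came from the same fit on 1 set. Differences are first population minus second, with Benjamini-Hochberg adjustment over all genes. The fits were tested on simulated data. Python 3.11.15, numpy 2.4.6, pandas 2.3.3 and matplotlib 3.10.9 made the tables and plots.

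The 9 genes, the gene lists and the tests were chosen with earlier results of these data known. All 9 were named. Of the other G1/S genes the 2 called with the largest difference in each comparison were named, with Cdk2, Ccne2 and the other INK4 and CIP/KIP genes, and of the S and M phase genes Mki67. Likeness was ranked among genes whose fitted means span at least 1, as a description without a test. Alternatives were other scalings, no set term, 1 set alone, only the populations compared, other choices of probe set, a filter on low means, no fold threshold, a replicate block and each array left out in turn. Leaving out the arrays with raised late granulocyte genes was chosen after seeing the data. Dropping the fold threshold cannot end a call. For a single member, the setting of any probe set refits the same probe set among all probe sets. Neither is a separate check of a call, and both are in the counts of alternatives. Motifs were searched in RefSeq promoter windows of GRCm38.p6.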

Additional observations from a re-analysis of the deposited data

Results flagged for a closer look

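Among the members, 1 value was set apart by an array far from the others of its group. In CLP, the only population with at least 4 arrays in a set, Ccnd2 was at 11.8973 on the CLP array without a number in its title, against 11.45 to 11.52 on the other CLP arrays. The 9 members were tested in this way, and chance alone sets apart about 1 in 20 such groups. Without that array Ccnd2 in pro-B cells against CLP stayed called.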

How the results depend on the processing

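Of 1934 recomputed member differences, 1881 kept their side of the thresholds, 25 lost a call, 28 gained one and 0 reversed a call. The 1881 include uncalled differences that changed sign and stayed uncalled, 70 of 1373 compared. Numbers of members called moved as follows in these comparisons. LSK against HSC had 1 called and 3 in set 2 alone, 2 with the most variable probe set, 2 with any probe set, 6 without the fold threshold, 3 without the arrays with raised late granulocyte genes, and 1 to 2 with each array left out (2 without HSC array 3 or 4). ETP against LSK had 2 called and 1 in set 1 alone, 1 with the mean of probe sets, and 1 to 2 with each array left out (1 without LSK array 4). Over all 18193 genes, LSK against HSC had 1530 called, with 1606 in set 2 alone and 1810 with the most variable probe set. ETP against LSK had 303 over all genes, with 274 in set 1 alone and 245 with the mean of probe sets. Without the fold threshold DN2 against ETP and DN3 against ETP had 5 each, against 3 with it, and DN3 against pro-B had 7, against 4. Over all genes, dropping that threshold gave 4749 calls in LSK against HSC, beside 1530 with it. It gave 934 beside 562 in DN2 against ETP, 2922 beside 1073 in DN3 against ETP and 4260 beside 1505 in DN3 against pro-B. Without the granulocyte arrays, which leaves fewer arrays, pro-B against CLP had 3, against 5, and DN3 against pro-B had 2, against 4. DN3 against pro-B also had 2 with the mean of probe sets and 6 with any probe set. Over all genes that mean gave 1167 calls there. Pro-B against LSK had 4, but 3 with the mean of probe sets, the most variable probe set, genes of low mean left out, the granulocyte arrays left out or pro-B array 1 left out, and 6 without the fold threshold or with any probe set. Over all genes pro-B against LSK had 783 called, 610 with the mean of probe sets and 946 with the most variable probe set. It had 595 of 9097 with genes of low mean left out and 2710 without the fold threshold. The cause of these moves was not tested beyond that. Cdkn2c is not tested when genes of low mean are left out.

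The replicate numbers do not pair the arrays: deviations of same-numbered arrays from their group means correlated at 0.008 on average in set 1 (30 pairs, -0.053 to 0.107) and -0.006 in set 2 (25 pairs). With a replicate block the members called were 1 in LSK against HSC, 2 in ETP against LSK, 3 in DN2 against ETP, 0 in DN3 against DN2, 3 in DN3 against ETP and 5 in pro-B against CLP, as without it. The other 4 comparisons could not be fitted with the block, because their arrays share no number within a set.

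Over all genes, dropping the fold threshold raised the number called by 1.66 to 3.46 times. Fitting only the arrays of both populations gave 11 genes in CLP against LSK (60 in the fit over all arrays), 2 in adult ETP against ETP (38) and 276 in DN3 against DN2 (426). Leaving out the granulocyte arrays gave 452 genes in pro-B against LSK (783), 441 in pro-B against CLP (1064) and 899 in DN3 against pro-B (1505). Without the set term CLP against LSK had 38 and adult ETP against ETP 14, and set 2 alone gave 13 for adult ETP against ETP.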

Other observations

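The S and M phase genes behind the counts above are named here after their values were seen. In LSK against HSC the largest differences were those of the spindle checkpoint kinase gene Bub1 (log2 difference 2.62) and the mitotic kinase gene Aurkb (2.14), and in CLP against LSK the largest was that of the mitotic kinase gene Aurka (-1.68). In pro-B against CLP the mitotic genes Plk1 (1.99) and Aurka (1.98) were called higher, while Mcm4 (-1.96) and Mcm6 (-1.44), which encode subunits of the replicative helicase, were called lower. In DN3 against pro-B the same 4 genes were called the other way, Plk1 at -1.60, Aurka at -1.14, Mcm4 at 1.75 and Mcm6 at 1.36. These comparisons share the pro-B arrays, and the values use all arrays, among them those with raised late granulocyte genes. Without such arrays, which leaves pro-B array 3 alone, the Mcm4 and Mcm6 calls in pro-B against CLP did not hold. All 4 calls in DN3 against pro-B also ended.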
